A study of Mus musculus with 16 samples.

Results

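The growth hormone and STAT5 axis was followed here through 10 genes that were chosen by symbol: the receptor gene Ghr, the kinase gene Jak2, the transcription factor genes Stat5a and Stat5b, the feedback genes Socs2 and Cish, the secreted-product genes Igf1 and Igfals, and the repressor genes Bcl6 and Cux2. These 10 genes were among 24623 gene identifiers in the male table and 24840 in the female table, and all 10 were counted in both tables and passed the filter on low counts in every comparison. Poly(A) RNA from whole liver was sequenced in female LKO, female floxed, male LKO and male floxed mice (n = 4 each, 16 libraries). LKO livers carried floxed Matr3 alleles together with Cre recombinase under the albumin promoter, which is active in hepatocytes, and floxed littermates carried the floxed alleles without Cre. Matr3 encodes matrin 3, an RNA- and DNA-binding protein of the nuclear matrix. Every group had eaten a diet with 60 kcal% fat from 7 weeks of age for 16 weeks and was fasted for 12 h before liver collection, so lean, fed and Cre-only livers were not part of the comparison. Library totals lay between 30495505 and 36496193 counts. Matr3 averaged 38.5 ± 1.40 CPM (counts scaled by library size) in LKO females and 58.9 ± 5.10 CPM in floxed females, and 35.0 ± 1.51 CPM in LKO males and 57.1 ± 3.66 CPM in floxed males (SD, n = 4 each). It stood at 65.4% of the floxed level in females and 61.3% in males, and the groups did not overlap in either sex (two-sided exact permutation p = 0.0286 in each, the smallest that 4 against 4 allows). The whole-liver RNA also holds transcripts of cells in which the albumin promoter is silent, and fewer cells of a type and less RNA per cell cannot be told apart in such samples.

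Growth hormone from the pituitary binds its receptor on hepatocytes, the receptor-bound kinase JAK2 phosphorylates STAT5, and STAT5 dimers enter the nucleus and bind DNA. STAT5 raises the transcription of Igf1 and Igfals, whose products circulate together as the endocrine arm of the pathway, and of Socs2 and Cish, whose products restrain the signal. In rodents the male pituitary releases growth hormone in pulses and the female pituitary releases it more evenly, and this difference sets much of the sex bias of liver genes. BCL6 is a repressor that is more abundant in male liver and shares many DNA sites with STAT5, and CUX2 is a repressor found mainly in adult female liver. Growth hormone itself, receptor protein and STAT5 phosphorylation were not analysed here.

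The DNA letters that STAT5 prefers, TTCNNNGAA, were looked for in the 250 bases before each annotated RefSeq start (build GRCm38.p6). The motif reads the same on both strands, so 1 search covers both. At least 1 match stood in 7.02% of all 32851 such windows, and 3 or more matches stood in 0.0274% of them. Of the 10 genes, 9 had windows, 16 in all. A Bcl6 window held 3 matches, another Bcl6 window held 1, and Igfals had 2 windows with 1 match each. The windows of Cish, Igf1, Ghr, Jak2, Stat5a, Stat5b and Cux2 held none, which says only that these letters are not in these windows. The Bcl6 window with 3 matches and an Igfals window are printed because Bcl6 was among the most variable of the 10 genes in males, with the feedback genes, and because Igfals encodes a classical secreted product of the pathway; capitals mark the matches.
Bcl6, chr16:23981284-23981533, minus strand: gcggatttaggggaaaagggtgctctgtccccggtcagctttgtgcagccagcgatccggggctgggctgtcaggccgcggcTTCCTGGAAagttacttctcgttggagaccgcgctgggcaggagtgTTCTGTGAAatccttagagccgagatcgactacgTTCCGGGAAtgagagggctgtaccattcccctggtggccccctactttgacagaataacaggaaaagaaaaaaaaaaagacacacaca
Igfals, chr17:24877981-24878230, plus strand: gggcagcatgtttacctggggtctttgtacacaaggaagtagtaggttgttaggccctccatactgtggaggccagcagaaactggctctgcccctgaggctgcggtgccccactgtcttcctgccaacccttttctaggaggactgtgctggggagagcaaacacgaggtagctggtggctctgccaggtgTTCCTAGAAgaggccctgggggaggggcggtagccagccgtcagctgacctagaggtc
The 3 Bcl6 matches lie from 168 to 80 bases before a downstream RefSeq start, and in the GENCODE annotation they fall in an intron of the longer Bcl6 transcripts. The Igfals match lies 58 to 50 bases before its start and falls in an intron of longer Igfals transcripts. These matches are letters in the reference genome, and binding was not measured.

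In females 1 of the 10 genes, the receptor gene Ghr, was called changed with loss of Matr3. That is near the share of all tested genes that were called, and the call was lost in most fits that left out 1 liver. Ghr fell in LKO females to 0.663 of the floxed level, and no member passed the test in males. Of the 10 genes, 0 were called higher and 1 was called lower in LKO against floxed females at an adjusted p under 0.05, where 9.29% of 15432 tested genes were called (4.44% higher, 4.85% lower; 685 and 748 genes, or 449 and 1240 when scaled by library totals). Leaving out 1 liver moved the number of genes called in females to between 396 (without floxed female 1) and 2300 (without LKO female 7), in males to between 69 (without LKO male 8) and 179 (without floxed male 4), and in the difference of the sexes to between 407 (without floxed female 1) and 1435 (without LKO female 7), against 1433, 160 and 713 with every liver. In LKO against floxed males 0 of the 10 were called, where 1.04% of 15355 tested genes were called (0.528% higher, 0.514% lower), and 0 of the 10 had an unadjusted p under 0.05. DESeq2 and limma-voom also called 0 of the 10 in males. The median log2 fold change of the 10 genes was −0.07 in females, beside 0.00 over all tested genes, and 0.05 in males, beside −0.01 over all tested genes.

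**Figure D1:**
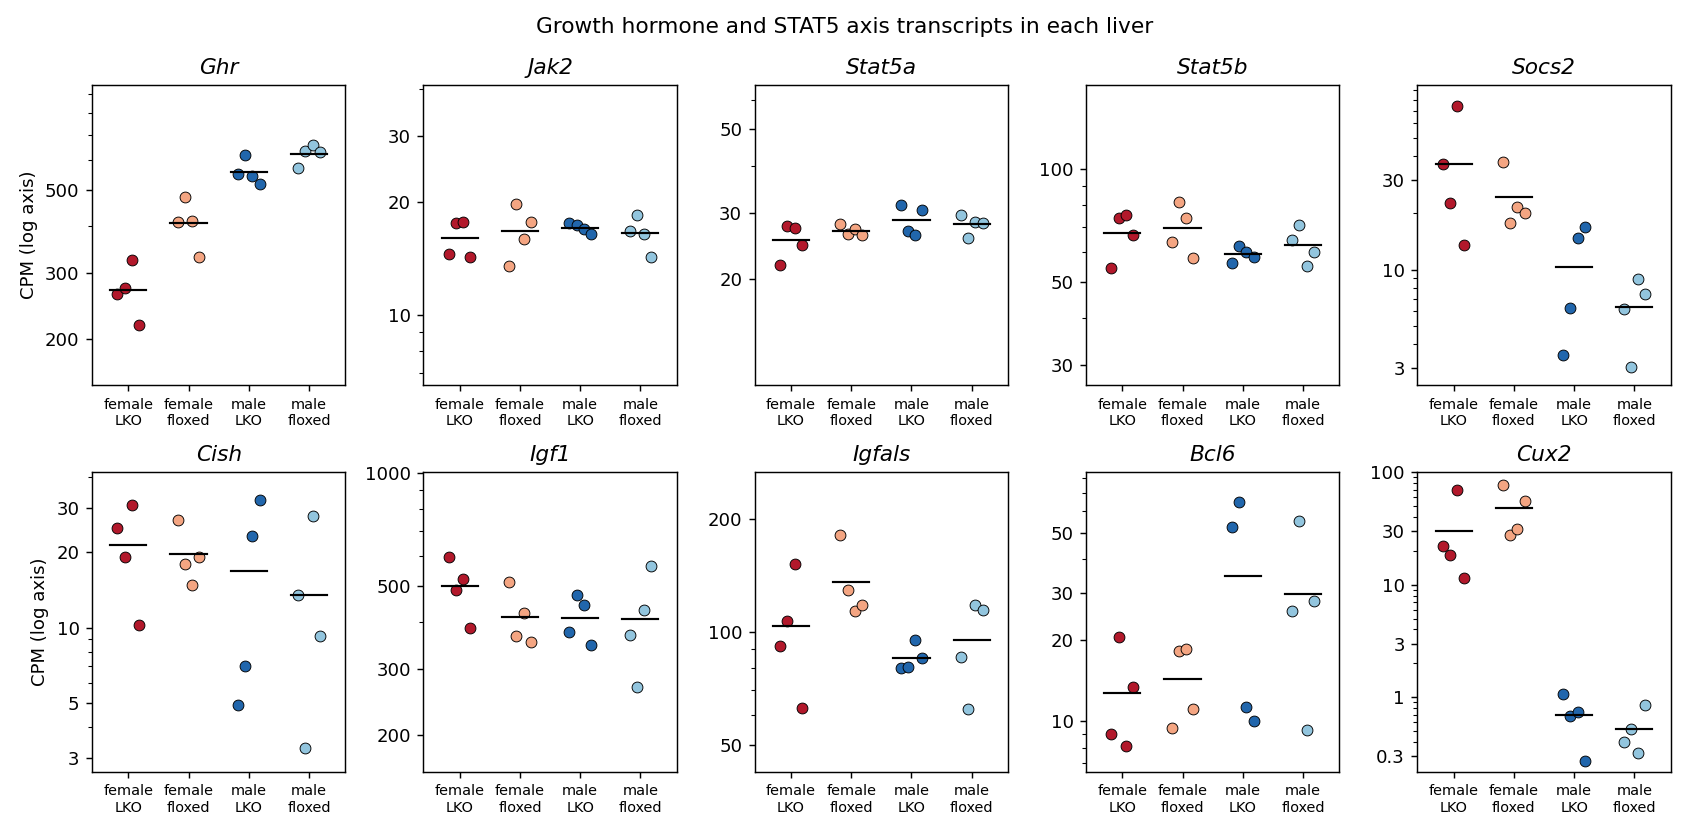
CPM of each of the 10 genes in each liver on a log axis, with 1 point per liver and a bar at the group mean (n = 4 per group). Ghr is lower in each female LKO liver than in each female floxed liver, Cux2 separates the sexes, and Cish and Bcl6 spread widely within both male groups.

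Ghr (ENSMUSG00000055737, chr15:3317760-3583492, minus strand) encodes the growth hormone receptor and, in mice, also a short circulating binding form made from the same gene, which gene-level counts cannot separate. Gene coordinates are those of GENCODE M21 on GRCm38, and values are listed for LKO livers 5 to 8 and floxed livers 1 to 4 in that order. In LKO females Ghr had 264, 274, 325 and 218 CPM, against 410, 477, 411 and 331 CPM in floxed females. Every LKO female was below every floxed female, with LKO female 7 and floxed female 4 close together. The share of all tested genes separated in this way was not counted. The log2 fold change was −0.59 ± 0.14 (SE; 95% interval −0.91 to −0.28; adjusted p = 0.0322, edgeR quasi-likelihood test with Benjamini-Hochberg adjustment), which is 1.51-fold lower.

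Ghr in LKO males had 550, 620, 545 and 519 CPM, against 569, 635, 656 and 629 CPM in floxed males. The male groups overlapped, since LKO male 6 stood above floxed male 1. The log2 fold change in males was −0.16 (95% interval −0.32 to 0.00; unadjusted p = 0.0559; adjusted p = 0.425, edgeR). The test of the difference between the sexes gave −0.43 ± 0.17 for females minus males (SE, log2; 95% interval −0.79 to −0.08), with an unadjusted p of 0.0200 and an adjusted p of 0.155 (edgeR), so a female-specific change of Ghr was not established. In that test 0 of the 10 genes were called, where 4.42% of 16126 tested genes were called (1.97% higher, 2.45% lower; 318 and 395 genes, or 203 and 698 by library totals), and Ghr was the 1 gene of the 10 with an unadjusted p under 0.05. The call in females was lost when any of 6 livers was left out, with an adjusted p (edgeR) of 0.0901 without LKO female 5, 0.0712 without LKO female 6, 0.0742 without LKO female 8, 0.0837 without floxed female 1, 0.0955 without floxed female 2 and 0.0750 without floxed female 3. Over all 8 fits that left out 1 liver the log2 fold change stayed between −0.69 and −0.50.

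The genes of the signalling core below the receptor showed no called change. Jak2 (ENSMUSG00000024789, chr19:29251828-29313080, plus strand) encodes the kinase that the receptor activates. Jak2 had 14.5, 17.6, 17.6 and 14.3 CPM in LKO females, against 13.5, 19.7, 15.9 and 17.7 CPM in floxed females. In males Jak2 had 17.6, 17.3, 16.9 and 16.4 CPM in LKO livers, against 16.8, 18.5, 16.4 and 14.2 CPM in floxed livers. The groups overlapped in both sexes, and the log2 fold change was −0.06 in females (adjusted p = 0.782) and 0.05 in males (adjusted p = 0.874, edgeR in both).

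Stat5b (ENSMUSG00000020919, chr11:100780731-100850724, minus strand) encodes the STAT5 form that carries most of the growth hormone signal in mouse liver. Stat5b had 54.4, 73.8, 75.6 and 66.5 CPM in LKO females, against 63.7, 81.6, 74.2 and 58.1 CPM in floxed females. In males Stat5b had 56.0, 62.2, 60.2 and 58.2 CPM in LKO livers, against 64.7, 70.9, 55.1 and 60.2 CPM in floxed livers. The groups overlapped in both sexes, with a log2 fold change of −0.04 in females (adjusted p = 0.880) and −0.08 in males (adjusted p = 0.740, edgeR in both).

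Stat5a (ENSMUSG00000004043, chr11:100859351-100885169, plus strand) is the neighbouring and closely similar gene, so the division of reads between the pair is uncertain, and 1.01% of its exon bases also belong to a Stat3 exon on the opposite strand. Stat5a had 21.7, 27.6, 27.2 and 24.6 CPM in LKO females, against 27.9, 26.3, 27.1 and 26.1 CPM in floxed females. In males Stat5a had 31.4, 26.8, 26.2 and 30.5 CPM in LKO livers, against 29.6, 25.6, 28.3 and 28.1 CPM in floxed livers. LKO female 5 was the lowest of the 16 livers, and the groups overlapped in both sexes. The log2 fold change was −0.09 in females (adjusted p = 0.557) and 0.04 in males (adjusted p = 0.891, edgeR in both). For Jak2, Stat5a and Stat5b the 95% intervals reached no further than −0.35 and 0.25 on the log2 scale in either sex.

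The feedback genes were the most variable targets. Socs2 (ENSMUSG00000020027, chr10:95385362-95417180, minus strand) encodes a suppressor of cytokine signalling that limits growth hormone action. Socs2 had 36.6, 22.5, 73.8 and 13.5 CPM in LKO females, against 37.4, 17.7, 21.6 and 20.03 CPM in floxed females. LKO female 7 held the highest level of all and LKO female 8 the lowest among females, so the LKO livers spanned the floxed ones. In males Socs2 had 3.50, 6.27, 14.7 and 16.8 CPM in LKO livers, against 6.14, 3.04, 8.87 and 7.38 CPM in floxed livers. LKO males 7 and 8 stood above every floxed male, and LKO males 5 and 6 stood among them. Loss of Matr3 came with a log2 fold change of 0.60 in females (95% interval −0.40 to 1.60; adjusted p = 0.418) and 0.70 in males (95% interval −0.31 to 1.71; adjusted p = 0.591, edgeR in both).

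Cish (ENSMUSG00000032578, chr9:107296026-107302784, plus strand) encodes CIS, a rapidly induced inhibitor of STAT5 activation. Of its exon bases, 7.46% also belong to an exon of Gm17041 and 4.07% to one of Gm17040, both on the opposite strand; whether the counting used strand is not given in the sources used here. Cish had 25.0, 19.2, 31.1 and 10.2 CPM in LKO females, against 27.0, 17.98, 14.8 and 19.2 CPM in floxed females. In males Cish had 4.91, 7.02, 23.2 and 32.4 CPM in LKO livers, against 13.5, 3.31, 28.0 and 9.29 CPM in floxed livers. The highest male liver, LKO male 8, had several times the level of the lowest of its own genotype, LKO male 5, and floxed males 3 and 2 differed in the same way. Cish had a log2 fold change of 0.11 in females (95% interval −0.54 to 0.77; adjusted p = 0.837) and 0.32 in males (95% interval −1.13 to 1.76; adjusted p = 0.906, edgeR in both). The male interval therefore covers changes of more than 1 log2 unit in either direction.

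The genes of the endocrine products showed no called change. Igf1 (ENSMUSG00000020053, chr10:87858265-87937042, plus strand) encodes insulin-like growth factor 1, the main circulating growth factor made under growth hormone control. Igf1 had 597, 488, 521 and 384 CPM in LKO females, against 512, 366, 422 and 353 CPM in floxed females. In males Igf1 had 375, 472, 443 and 346 CPM in LKO livers, against 368, 268, 431 and 562 CPM in floxed livers. The groups overlapped in both sexes, and the log2 fold change was 0.27 in females (95% interval −0.08 to 0.62; adjusted p = 0.298) and 0.01 in males (95% interval −0.42 to 0.43; adjusted p = 0.998, edgeR in both).

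Igfals (ENSMUSG00000046070, chr17:24865997-24882010, plus strand) encodes the acid-labile subunit, which keeps IGF1 in a long-lived complex in blood. Igfals had 92, 107, 152 and 62.6 CPM in LKO females, against 182, 130, 114 and 118 CPM in floxed females. LKO females 5, 6 and 8 were below every floxed female and LKO female 7 was above floxed females 2, 3 and 4. In males Igfals had 80.0, 80.8, 95.2 and 85.1 CPM in LKO livers, against 85.6, 62.4, 118 and 115 CPM in floxed livers. The log2 fold change was −0.39 in females (95% interval −0.94 to 0.15; adjusted p = 0.328) and −0.16 in males (adjusted p = 0.779, edgeR in both). Floxed males 1 and 2 carry mouse numbers apart from those of the other males. Without both of them Igfals was called lower in LKO males (log2 fold change −0.45, adjusted p = 0.0346, edgeR). These 2 held the least Igfals of the floxed males, so leaving them out widens the difference in advance.

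**Figure D2:**
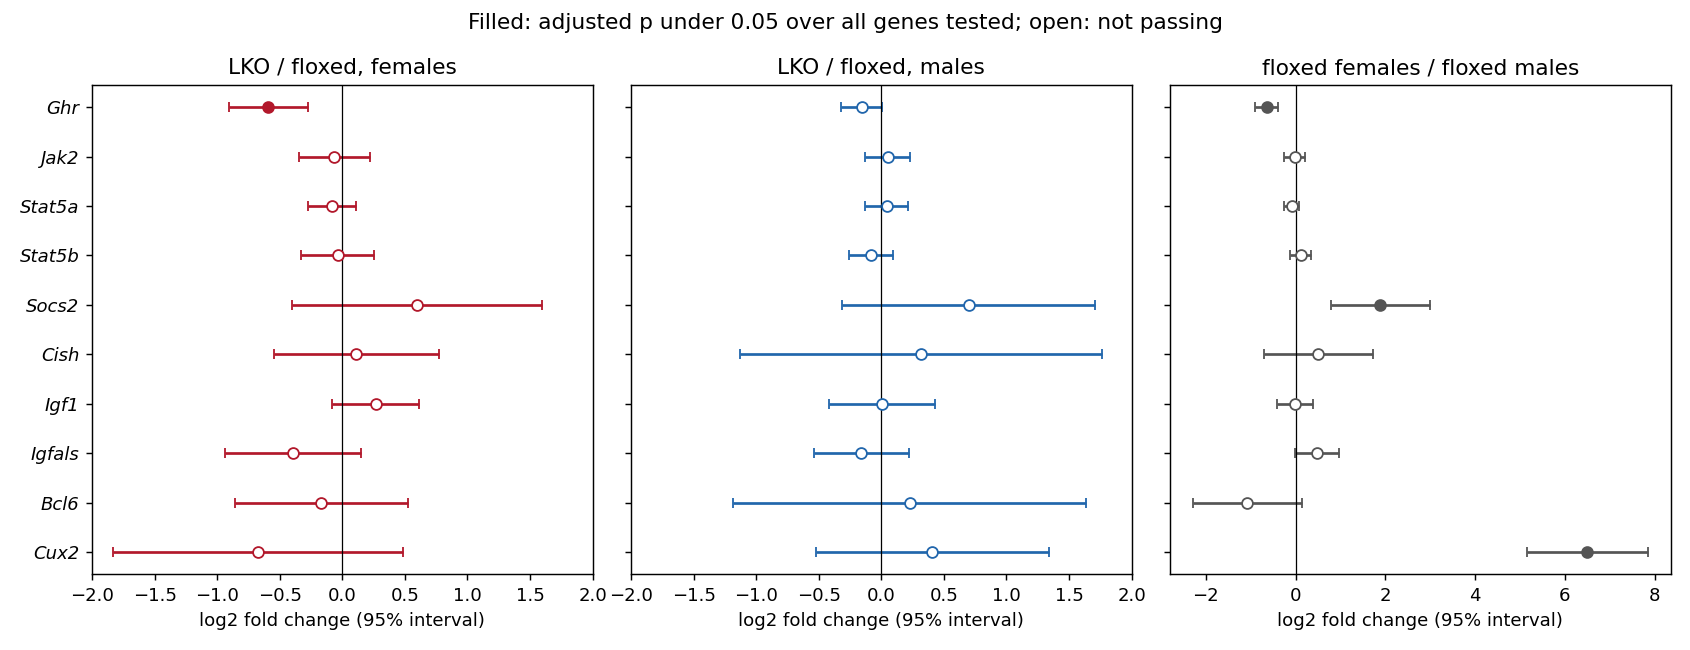
Log2 fold change of each gene (points) with its 95% interval (bars) for LKO over floxed females, LKO over floxed males and floxed females over floxed males, filled where the adjusted p is under 0.05. Ghr is filled among females, none is filled among males, and Cux2, Socs2 and Ghr are filled between the sexes.

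The repressor genes showed no called change with loss of Matr3. Bcl6 (ENSMUSG00000022508, chr16:23965052-23988852, minus strand) had 9.01, 20.6, 8.13 and 13.4 CPM in LKO females, against 9.47, 18.3, 18.5 and 11.1 CPM in floxed females. In males Bcl6 had 52.4, 64.8, 11.3 and 10.1 CPM in LKO livers, against 25.7, 55.3, 9.28 and 28.0 CPM in floxed livers. Both male genotypes held livers near the female level and livers far above it: LKO males 7 and 8 and floxed male 3 were low, and LKO males 5 and 6 and floxed male 2 were high. Bcl6 had a log2 fold change of −0.17 in females (95% interval −0.86 to 0.53; adjusted p = 0.763) and 0.23 in males (95% interval −1.18 to 1.64; adjusted p = 0.937, edgeR in both).

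Cux2 (ENSMUSG00000042589, chr5:121856366-122050102, minus strand) had 21.9, 18.2, 68.7 and 11.6 CPM in LKO females, against 77.6, 27.6, 31.1 and 55.7 CPM in floxed females. LKO females 5, 6 and 8 were below every floxed female, and LKO female 7 was above all but floxed female 1. Over all 8 females the log2 fold change was −0.67 (95% interval −1.83 to 0.49; adjusted p = 0.436, edgeR). Without LKO female 7 it was −1.48 and passed the test (adjusted p = 0.0269, edgeR). That liver held the most Cux2 of the LKO females, so leaving it out widens the difference in advance. Calls over all genes also numbered 2300 in that fit, against 1433 with every liver. In males Cux2 had 1.06, 0.69, 0.73 and 0.27 CPM in LKO livers, against 0.40, 0.52, 0.32 and 0.84 CPM in floxed livers, which is near the limit of what these libraries count, and the log2 fold change was 0.41 (adjusted p = 0.768, edgeR).

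Between the floxed sexes the axis differed in 3 genes. Of the 10 genes, Cux2 and Socs2 were called higher and Ghr was called lower in floxed females than in floxed males. Of 16126 tested genes 22.9% were called, 11.3% higher and 11.6% lower (1826 and 1872 genes, or 2460 and 1217 by library totals). A count of 3 of 10 is not far from that share. The groups did not overlap for Cux2, Socs2 or Ghr, but the share of all tested genes without overlap was not counted. Sex and table cannot be told apart, because each sex was counted in its own table, and the printed CPM were scaled within a table while the fold changes between sexes were scaled over all 16 libraries. Cux2 averaged 48.0 ± 23.4 CPM in floxed females and 0.520 ± 0.231 CPM in floxed males, with SDs over 4 livers each and a log2 fold change of 6.50 ± 0.64 (SE; adjusted p = 3.29e-06, edgeR), or 90.3-fold. Socs2 averaged 24.2 ± 8.94 CPM in floxed females and 6.36 ± 2.48 CPM in floxed males, with a log2 fold change of 1.89 ± 0.52 (SE; 95% interval 0.79 to 3.0; adjusted p = 0.0158, edgeR). The Socs2 call was lost without floxed female 1 (adjusted p = 0.0533) and without floxed male 2 (adjusted p = 0.05001, edgeR in both). Ghr averaged 408 ± 59.8 CPM in floxed females and 623 ± 37.3 CPM in floxed males, and its log2 fold change was −0.65 ± 0.12 (SE; adjusted p = 0.00124, edgeR), so Ghr was 1.56-fold lower in females.

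Bcl6 averaged 14.4 ± 4.73 CPM in floxed females and 29.6 ± 19.1 CPM in floxed males (SD, n = 4 each). Its log2 fold change was −1.07 (95% interval −2.29 to 0.14; adjusted p = 0.190, edgeR), and floxed male 3 was level with the lowest floxed female. Igfals averaged 136 ± 31.5 CPM in floxed females and 95.3 ± 26.4 CPM in floxed males, with a log2 fold change of 0.48 (95% interval −0.02 to 0.97; adjusted p = 0.154, edgeR). Cish, with 19.8 ± 5.17 CPM in floxed females and 13.5 ± 10.5 CPM in floxed males, had a log2 fold change of 0.51 (adjusted p = 0.563, edgeR). Igf1 stood at 413 ± 72.1 CPM in floxed females and 407 ± 123 CPM in floxed males, with a log2 fold change of −0.01 (adjusted p = 0.969, edgeR). The log2 fold changes of Jak2, Stat5a and Stat5b between the floxed sexes were −0.01, −0.09 and 0.11, and none passed the test. Of 24 male-biased genes 0 were called higher and 23 lower in floxed females, and of 30 female-biased genes 27 were called higher and 1 lower. In the same comparison 11 of 12 Kupffer cell and macrophage markers were called higher, with summed levels of 966 to 1454 CPM in floxed females, against 342 to 544 CPM in floxed males. Acute-phase genes were higher for 13 of 25, and the part of either list in the sex differences of Cux2, Socs2 and Ghr was not tested.

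Ghr was ranked by its mean level over the 4 groups. It stood lowest in LKO females (270.3 ± 43.7 CPM), then floxed females, then LKO males (558 ± 43.1 CPM), and was highest in floxed males. Neighbouring groups in this order did not overlap, except the 2 male groups. The share of all tested genes without such overlap was not counted, and these CPM were scaled within the table of each sex. The log2 fold change was −0.59 between female genotypes and −0.65 between floxed sexes; both use the floxed females and were not compared by a test.

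Levels of different genes were compared per kilobase of annotated exon. In LKO females the group mean was highest for Igf1 (50.2 CPM per kilobase), followed by Igfals (32.7) and Ghr (29.9). In floxed females Ghr (45.0 CPM per kilobase), Igfals (42.9) and Igf1 (41.7) were close together. In LKO males Ghr was highest (61.7 CPM per kilobase), followed by Igf1 (41.3) and Igfals (26.9), and floxed males had the same order with 68.8, 41.1 and 30.1 CPM per kilobase. Stat5b came next in all 4 groups with 12.2 CPM per kilobase in LKO females, 12.5 in floxed females, 10.7 in LKO males and 11.3 in floxed males. The lowest gene was Bcl6 in both female groups, with 1.91 CPM per kilobase in LKO and 2.14 in floxed livers, and Cux2 in both male groups, with 0.0683 in LKO and 0.0516 in floxed livers.

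The genes differed in how much they varied between livers. The spread was taken as the SD of log2 CPM between livers of 1 sex and genotype, pooled over both genotypes, and was ranked among genes whose log2 CPM averaged 1 or more (11591 genes in males, 11754 in females). In males Cish had an SD of 1.29 and Bcl6 an SD of 1.25, each at percentile 99.9, and Socs2 had an SD of 0.884 at percentile 99.7. In the same livers Ghr, Stat5a, Jak2 and Stat5b had SDs between 0.0991 and 0.119, at percentiles 31.9 to 44.4, below the median SD of 0.166 over all tested genes. The receptor, kinase and transcription factor transcripts were thus even across males whose feedback transcripts differed several-fold. In females Cux2 had an SD of 0.918 at percentile 99.4 and Socs2 an SD of 0.808 at percentile 99.1, and Bcl6 (0.554) and Cish (0.550) stood at percentile 97.0 each. Ghr (0.226, percentile 70.2), Stat5b (0.218, percentile 68.1) and Jak2 (0.202, percentile 63.9) lay near the female median of 0.204 over all tested genes, and Stat5a (0.117, percentile 28.0) lay below it. Igfals had an SD of 0.435 in females and 0.315 in males, and Igf1 had an SD of 0.255 in females and 0.348 in males.

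**Figure D3:**
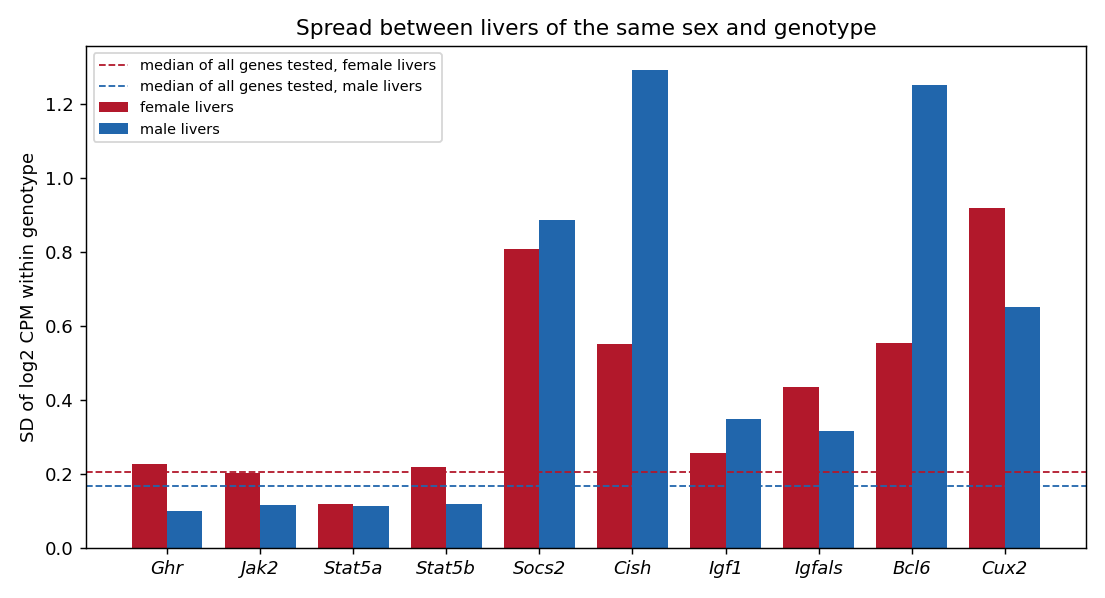
SD of log2 CPM between livers of the same genotype, pooled over both genotypes, for each gene in female and in male livers. The dashed lines give the median over all tested genes, 0.204 in females and 0.166 in males. Cish, Bcl6 and Socs2 stand far above the line in males.

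Some variable genes ran in parallel or in opposite directions from liver to liver, but no pair passed the adjustment. All 90 pairs of the 10 genes were correlated within a sex over 8 livers (two-sided exact permutation tests over 40320 orders, adjusted over the 90), and 0 pairs passed by Pearson or by Spearman correlation. In males Cish and Bcl6 ran in opposite directions, with r = −0.948 (permutation p = 0.00201, adjusted 0.0603) and rho = −0.905 (permutation p = 0.00456, adjusted 0.137). Without the 2 livers farthest from the median of Cish r was −0.958, without the 2 farthest on Bcl6 it was −0.899, and with the genotype means taken out it was −0.957. Socs2 and Cish ran in the same direction in males, with r = 0.920 (permutation p = 0.00154, adjusted 0.0603) and rho = 0.905 (permutation p = 0.00456, adjusted 0.137), and r was 0.832 without the 2 farthest livers and 0.938 with the genotype means taken out. Socs2 and Bcl6 in males had r = −0.847 (permutation p = 0.0109, adjusted 0.196) and rho = −0.738 (permutation p = 0.0458, adjusted 0.446), and r was −0.776 without the 2 livers farthest on Socs2. The males with most Bcl6, LKO males 5 and 6 and floxed male 2, were the 3 with least Cish.

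In females Socs2 and Cish again ran together, with r = 0.894 (permutation p = 0.00362, adjusted 0.0815) and rho = 0.881 (permutation p = 0.00724, adjusted 0.163), and r was 0.858 without the 2 farthest livers and 0.918 with the genotype means taken out. Igfals and Cux2 had r = 0.892 in females (permutation p = 0.00176, adjusted 0.0603) and rho = 0.905 (permutation p = 0.00456, adjusted 0.137), and r was 0.740 without the 2 livers farthest on Igfals. Igfals and Cux2 in males had r = −0.0645 (permutation p = 0.878) and rho = −0.167 (permutation p = 0.703). Cish and Bcl6 in females had r = −0.621 (permutation p = 0.1005, adjusted 0.435) and rho = −0.762 (permutation p = 0.0368, adjusted 0.446), over a narrower range of both genes than in males. Without the 2 livers farthest on Cish r was −0.811, without the 2 farthest on Bcl6 it was −0.689, and with the genotype means taken out it was −0.627. LKO female 7 held the most Socs2 and Cish and the least Bcl6 of the 8 females. The livers of each sex share 1 table, and the time of the last growth hormone pulse before collection was not analysed here.

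**Figure D4:**
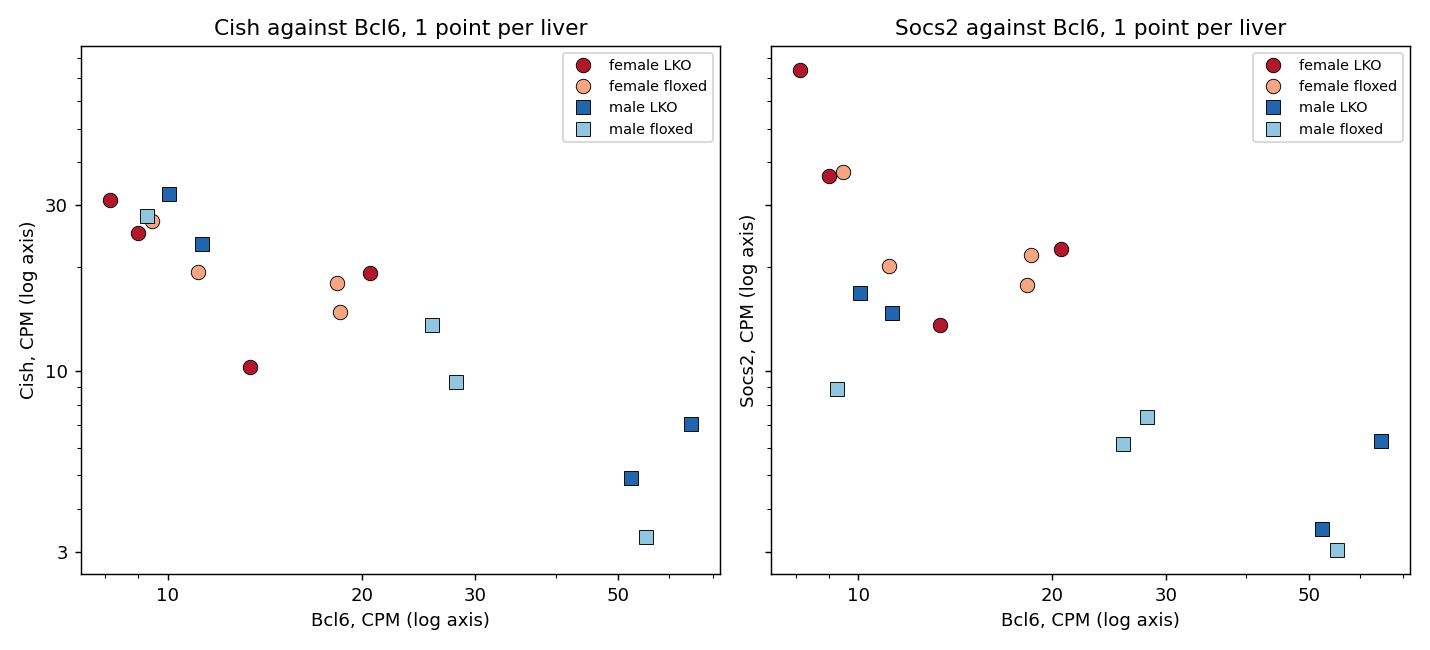
CPM of Cish and of Socs2 against CPM of Bcl6, both on log axes, with 1 point per liver. The 3 males with most Bcl6 lie lowest for Cish and are among the lowest 4 for Socs2, LKO and floxed livers are mixed along the slope, and females gather at low Bcl6.

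Among 10918 other named genes, the pair whose log2 CPM followed each gene most closely over the 16 livers was taken by the smallest root mean square difference after centring each gene on its mean. For Ghr these were Mettl7a1 (0.11) and Akr1c6 (0.13), against 0.51 for Ghr about its own mean. Within 1 sex and genotype the SD of Ghr was 0.0991 in males and 0.226 in females. Much of the 0.51 therefore lay between groups, and likeness from liver to liver within a group was not measured. For Cish they were Foxq1 (0.47) and Rgs3 (0.57), against 0.94 for Cish itself, and for Bcl6 they were Noct (0.60) and Kcnk5 (0.67), against 0.97. For Socs2 they were Tgm1 (0.60) and Kcnj10 (0.63), against 1.2, which includes its difference between the sexes. For Cux2 they were Slc22a26 (0.78) and Cyp2c40 (1.2), against 2.94, where the sex difference makes up most of the range. For Igf1 they were Lsm6 (0.19) and Nectin2 (0.21), against 0.29, and for Igfals they were Cyp4f14 (0.20) and Mbl2 (0.21), against 0.40. The nearest were Snx18 and Rasa1 for Jak2, Kctd2 and Inpp5k for Stat5a, and Sox6 and Zzef1 for Stat5b, at 0.0908 to 0.0986, where small differences are shared by many genes.

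The rest of the receptor pathway was read from lists. Of 21 other receptor signalling genes, 0 were called higher and 4 lower in LKO females, and 0 were called in LKO males; the median log2 fold change was 0.07 in females and −0.03 in males. Pik3r1, a regulatory subunit of PI3 kinase, fell to 67.0 ± 3.89 CPM in LKO females, against 97.0 ± 12.5 CPM in floxed females (SD, n = 4 each; log2 fold change −0.53; adjusted p = 0.0136, edgeR), and its change differed between the sexes (−0.59, adjusted p = 0.0283), a call lost without any of 9 single livers (adjusted p up to 0.0614). Prlr, the prolactin receptor, fell to 177 ± 30.8 CPM in LKO females, against 264 ± 28.2 CPM in floxed females (log2 fold change −0.57; adjusted p = 0.0267, edgeR), a call lost without any of 6 single livers (adjusted p up to 0.0781). Gab1, an adaptor protein gene, also fell in LKO females, by 0.48 on the log2 scale (adjusted p = 0.0373, edgeR), and its adjusted p reached 0.108 without 1 liver. Leaving out 1 liver reduced the count of 4 to 1 without floxed female 1 and to 2 without LKO female 5, 6 or 8 or floxed female 2.

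Among 14 other negative regulators, 2 were called higher and 0 lower in LKO females, and 0 were called in LKO males; the median log2 fold change was 0.02 in females and −0.04 in males. Socs3, an inducible inhibitor of JAK kinases that also answers interleukin 6, rose to 63.9 ± 17.4 CPM in LKO females, against 28.0 ± 2.15 CPM in floxed females (SD, n = 4 each; log2 fold change 1.19; adjusted p = 0.00579, edgeR). In males Socs3 had 7.66 ± 1.56 CPM in LKO livers and 11.5 ± 3.27 CPM in floxed livers (log2 fold change −0.58; adjusted p = 0.253), and the sexes differed (1.77, adjusted p = 0.00475, edgeR). Socs3 rose in the livers whose Socs2 and Cish showed no called change. Ptpn2, a phosphatase that acts on JAK and STAT proteins, rose in LKO females (log2 fold change 0.62; adjusted p = 0.0161, edgeR), and the count of 2 was 1 without LKO female 5, floxed female 1 or floxed female 2.

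Of 10 tested genes for IGF binding proteins and receptors, 1 was called higher and 2 lower in LKO females, and 0 were called in LKO males; the median log2 fold change was −0.11 in females and 0.01 in males. Igfbp1, an IGF binding protein induced in liver by fasting and by inflammatory signals, rose to 793 ± 657 CPM in LKO females, against 80.7 ± 21.4 CPM in floxed females (SD, n = 4 each; log2 fold change 3.30; adjusted p = 0.0101, edgeR). Igfbp5 fell to 5.16 ± 1.90 CPM in LKO females, against 17.4 ± 2.68 CPM in floxed females (log2 fold change −1.76; adjusted p = 0.00579, edgeR), and Igfbp7 fell by 0.29 on the log2 scale (adjusted p = 0.0461), a call lost without any of 7 single livers (adjusted p up to 0.116). Igfbp3, the main carrier of IGF1 beside the acid-labile subunit, had a log2 fold change of −0.55 (adjusted p = 0.108, edgeR).

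Sex-biased genes of mouse liver, many of them growth hormone targets, were counted from lists. Of 32 tested female-biased genes, 2 were called higher and 18 lower in LKO females, with a median log2 fold change of −1.11 beside 0.00 over all tested genes. Of 19 tested male-biased genes, 6 were called higher and 1 lower in LKO females, with a median of 0.24. In LKO males 1 of 24 tested female-biased genes was higher and 0 lower, with a median of −0.03. Of 24 male-biased genes 0 were higher and 3 lower in LKO males, with a median of −0.52. Over all tested genes in males the median was −0.01, and 0.528% were called higher and 0.514% lower. Sult2a1, a steroid sulfotransferase whose family members share sequence, fell to 8.74 ± 5.0 CPM in LKO females, against 284 ± 81.5 CPM in floxed females (SD, n = 4 each; log2 fold change −5.02; adjusted p = 0.000899, edgeR). C8b, a complement component, rose in LKO females (log2 fold change 0.92; adjusted p = 0.00551) and fell in LKO males (−0.78; adjusted p = 0.0173), and this difference passed the test (1.70; adjusted p = 0.000777, edgeR). The female-biased count of 20 was 9 without floxed female 1, 11 without LKO female 6 or 8 and 13 without LKO female 5 or floxed female 2. The count of 7 male-biased genes was 3 without floxed female 1, and the 3 in males were 0 without LKO male 5, 7 or 8 or floxed male 3.

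Other transcripts moved in the LKO females in which Ghr fell. Of 25 acute-phase genes, 19 were called higher and 0 lower (median log2 fold change 1.24), and their summed level was 87209 to 180089 CPM in LKO females, against 38679 to 58160 CPM in floxed females, and 24482 to 27891 CPM in LKO males, against 24953 to 32305 CPM in floxed males. Of 12 sinusoidal endothelial markers, 0 were called higher and 7 lower (median log2 fold change −0.63), with summed levels of 218 to 277 CPM in LKO females, against 299 to 321 CPM in floxed females; the count was between 2 and 4 when LKO female 5, 6 or 8 or floxed female 1, 2 or 3 was left out. Of 11 hepatocyte markers, 2 were called higher and 2 lower in LKO females (median log2 fold change 0.12), and 0 were called without LKO female 5 or 8 or floxed female 1. Their summed level was 37758 to 55831 CPM in LKO females, against 62700 to 71402 CPM in floxed females, and Alb alone averaged 25725 ± 5775 CPM in LKO females and 47278 ± 3454 CPM in floxed females (SD, n = 4 each). No counted gene of these 3 lists was at 0 in any group, and 11 of 12 listed hepatocyte markers were counted. Their part in the lower Ghr of LKO females was not tested.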

How the data were processed

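Poly(A) RNA of 16 mouse livers was sequenced as directional libraries, per the labels' protocols. The authors deposited raw counts per Ensembl gene, 1 table per sex, on build mm10 per the submitters' processing notes; the aligner, counter and strand setting are not given in the sources used here. Symbols, coordinates and exon lengths came from GENCODE M21 (GRCm38), and 11 identifiers in each table had no symbol and kept their place in the fits. The members and lists were chosen with earlier results of these data known.

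The deposited counts went into edgeR 4.0.16 (R 4.3.3): the default filter filterByExpr (count of 10, total of 15), TMM scaling and the quasi-likelihood F-test were used, per table for LKO against floxed and over 16 libraries and 23167 shared identifiers for the difference between the sexes and for floxed females against floxed males. Calls needed a p under 0.05 after Benjamini-Hochberg adjustment over every tested gene. Printed CPM values were TMM-scaled within the table of each sex, whereas fold changes between the sexes came from the fit scaled over 16 libraries. Correlations, spread and likeness used log2 CPM with a prior count of 2. All 10 members were named, with up to 4 genes per list and comparison of smallest p, and 2 genes of most similar pattern per member, leaving out predicted and clone-named genes; some genes that this rule names are not reported here. Alternatives were DESeq2 1.42.0, limma-voom (limma 3.58.1), other scalings and filters, robust dispersion, a replicate block and leaving out libraries. The code was tested on simulated counts. Replicates are separate mice, so the tests set the differences between groups against the spread between mice.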

Additional observations from a re-analysis of the deposited data

How the results depend on the processing

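Ghr in females was called lower under all 9 alternatives other than leaving out 1 liver (log2 fold change −0.78 to −0.59, adjusted p 0.00186 to 0.0328, edgeR, DESeq2 or limma), and its adjusted p ran from 0.0111 to 0.0955 when 1 liver was left out. Of these 9 alternatives, 1 left out floxed female 4 and LKO female 7 together. They held the least Ghr of the floxed and the most of the LKO females, so that fit widens the difference in advance. Members called in females numbered 2 (Ghr and Cux2, −1.40, adjusted p = 0.0408) without floxed female 4 and LKO female 7 together, and 0 to 2 when 1 liver was left out. Members called in males numbered 1 (Igfals) without floxed males 1 and 2, and for the difference between the sexes 0 to 1 (Ghr, −0.54, adjusted p = 0.0434, without LKO female 7). Floxed males 1 and 2 held the least Igfals of the floxed males. LKO female 7 held the most Cux2 and Ghr of the LKO females. Leaving these livers out therefore widens those differences in advance. The cause of the changed calls was not tested. Signs that turned belonged to uncalled values. Without floxed males 1 and 2 the log2 fold change was 0.035 for Stat5b, −0.15 for Cish and −0.28 for Igf1 in males. Without floxed female 4 and LKO female 7 it was −0.077 for Socs2 and −0.14 for Cish in females. Scaled by library totals it was −0.026 for Stat5b in the difference and, between floxed sexes, 0.057 for Jak2 and 0.064 for Igf1; limma-voom gave 0.021 for that Igf1 value. Leaving out 1 liver gave these ranges: in males Jak2 −0.013 to 0.11, Stat5a −0.0047 to 0.083, Cish −0.21 to 0.95, Igf1 −0.15 to 0.20 and Bcl6 −0.27 to 0.72; in females Jak2 −0.15 to 0.025, Stat5b −0.11 to 0.054 and Cish −0.12 to 0.34; in the difference Stat5b −0.034 to 0.14, Socs2 −0.70 to 0.24, Cish −0.84 to 0.33 and Bcl6 −0.89 to 0.10; between floxed sexes Jak2 −0.11 to 0.070 and Igf1 −0.17 to 0.18. DESeq2 called 487 genes in males and 1293 in the difference, against 160 and 713 with edgeR, and 2335 against 1433 in females.

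Replicate numbers are shared between the sexes and not between genotypes of 1 sex. Livers with the same number had correlations of −0.119 to 0.130, and 2 of 8 numbers correlated best with their own, so the numbers do not pair the livers. With the replicate block 0 members were called in the difference and 3 between floxed sexes, as without it, Igf1 was at 0.024 between floxed sexes, and the calls over all genes were 468 and 2937. Low counts limit Cux2 in males.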

Other observations

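Of 9 lipid genes known to rise when hepatic growth hormone or STAT5 signalling is lost in mice, 2 were called higher and 0 lower in LKO males, and of 8 tested in females 0 were called higher and 3 lower. Fasn, the gene of fatty acid synthase, fell to 100.8 ± 28.4 CPM in LKO females, against 276 ± 115 CPM in floxed females (SD, n = 4 each; log2 fold change −1.45; adjusted p = 0.0201, edgeR). In males Fasn rose to 264 ± 27.7 CPM in LKO livers, against 151 ± 16.4 CPM in floxed livers (log2 fold change 0.81; adjusted p = 0.0042, edgeR; 0.205 in the 16-library fit). Cidec, a lipid droplet protein gene, rose in LKO males (log2 fold change 1.14; adjusted p = 0.0147, edgeR; 0.668 in the 16-library fit). Srebf1, a regulator of lipid synthesis, fell in LKO females (log2 fold change −1.58; adjusted p = 0.00745, edgeR), as did Vldlr (−1.33; adjusted p = 0.0311). Leaving out 1 liver gave a count of 1 in males without LKO male 5, 6 or 8, and a count of 1 in females without LKO female 5 or floxed female 1.

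Of 18 regulators of liver sex bias and growth hormone response, 1 was called higher and 2 lower in LKO females, and 0 were called in LKO males; the female count was 8 without LKO female 7. Hnf4a, a master regulator of hepatocyte genes, rose to 855 ± 86.1 CPM in LKO females, against 596 ± 60.02 CPM in floxed females (SD, n = 4 each). Its log2 fold change was 0.52 (adjusted p = 0.023, edgeR), a call lost without any of 4 single livers (adjusted p up to 0.0722). Nr1i3, the constitutive androstane receptor gene, fell to 500.4 ± 102 CPM in LKO females, against 1011 ± 127 CPM in floxed females (log2 fold change −1.01; adjusted p = 0.00796, edgeR).

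Other cell type markers in LKO females were called lower for 2 of 12 stellate and 1 of 7 cholangiocyte genes, and for 0 of 12 Kupffer cell, 0 of 7 neutrophil, 0 of 8 lymphocyte and 0 of 1 adipocyte genes tested; 0 of these were called in LKO males. Without floxed female 4, 4 Kupffer cell and 5 neutrophil genes were called higher in LKO females and 0 lower, against 0 higher with every liver. In that fit 1039 of 15633 tested genes were called higher. Neutrophil marker sums ran from 13.1 to 90.2 CPM in floxed females, with a median of 16.5. Leaving out a floxed liver high in these markers widens the difference in advance. Adipocyte marker genes summed to 124 to 148 CPM in LKO males, against 46.1 to 75.2 CPM in floxed males, and Lep was at 0 in LKO females. Their part in the values of the axis was not tested.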
